A study of Sus scrofa with 12 samples.

Results

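The calpain system of the loin muscle was followed through 5 genes. CAPN1, CAPN2 and CAPN3 encode calpains, CAPNS1 encodes the small subunit that pairs with CAPN1 and CAPN2, and CAST encodes calpastatin. They were taken by name, as the calpain genes of meat tenderness, from 28224 annotated pig genes, of which 15017 had an assembled transcript in at least 1 library. For CAST the intron chains, meaning the exact sets of introns joined in 1 transcript, were described as well: 5 chains of 101645 over all genes.

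RNA of the longissimus dorsi, the loin muscle, was sequenced as 1 library for each of 12 pigs. All were castrated males of 1 closed commercial purebred Iberian population, finished outdoors on acorns and grass, with siblings left out of the selection. They were the extremes of breeding value (EBV) for intramuscular fat (IMF). The 6 pigs of the high group (H) had a labelled IMF of 10.62 to 13.8% and EBVs of 2.78 to 3.48, and the 6 of the low group (L) had an IMF of 1.7 to 2.28% and EBVs of -1.46 to -1.31. The labelled IMF of the L pigs is lower on average than the mean that the study's methods give for that group, and the labels were used here. The labels name no allele or treatment for either group and no age for single pigs. The comparison asked whether calpain transcripts differed between the pigs of highest and lowest breeding value for IMF. Coverage of the assembled transcripts amounted to 9.88 to 17.6 gigabases per library with no difference between the groups beyond their spread (two-sided exact permutation test, p = 0.552, n = 6 per group). More transcripts were assembled in the H pigs (38808 ± 3189, SD, n = 6) than in the L pigs (34471 ± 2002, SD, n = 6; exact permutation test, p = 0.00866). Of the 8 skeletal muscle markers DES, MYLPF and TNNT3 were present in all 12 libraries, whereas ACTA1 and MB were listed at 0 in all 12, TTN in 10, CKM in 2 and NEB in 1, so that a 0 in these files can be a failed estimate.

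Calpains are cysteine proteases that are switched on by calcium. CAPN1 and CAPN2 are the catalytic subunits of the ubiquitous µ-calpain and m-calpain, each of which pairs with the small regulatory subunit CAPNS1, and calpastatin is their specific inhibitor. After slaughter these proteases cut proteins of the myofibril and its attachments, and the balance of calpain and calpastatin is known to influence how tender meat becomes. CAPN3 is the calpain of skeletal muscle, is anchored to titin in the sarcomere, and does not need the small subunit. Calpastatin is made in several types, which start at different first exons and differ in their inclusion of small exons.

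The sequences at which CAST transcripts can differ are given first, since they identify the form found in loin muscle. All are on the plus strand of chromosome 2 of Sscrofa11.1, from the RefSeq genome, where CAST spans 103255738 to 103378623. RefSeq lists 28 CAST models with 4 ends of the first exon. Below, exon bases at these ends are in capitals and the first intron bases in lower case, in the order in which they lie along the gene, at chr2:103255981-103256000, chr2:103256671-103256690, chr2:103300309-103300328 and chr2:103312173-103312192.
First exon 1: CACACCCAGGAGgtgagtgg
First exon 2: TGGTACAAGACGgtaaatag
First exon 3: GCCAGAAGCAGAgtgagtac
First exon 4: CCTGGCTGCCAGgtttgcta
First exon 3 was used in all 12 libraries, first exon 1 in 5 libraries, and first exons 2 and 4, which 11 and 3 models use, in 0 libraries.

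A pair of internal exons mattered next. The first, of 96 bases at chr2:103347811-103347906, lies in all 28 models and was skipped by 1 chain. The second, of 66 bases at chr2:103324699-103324764, lies in 13 models and was not assembled in any library. Each is shown in capitals between the closest 20 bases of the neighbouring exons in lower case.
Exon of 96 bases: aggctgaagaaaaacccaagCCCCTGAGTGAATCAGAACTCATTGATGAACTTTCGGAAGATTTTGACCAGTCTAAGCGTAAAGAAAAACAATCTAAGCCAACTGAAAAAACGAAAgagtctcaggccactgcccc
Exon of 66 bases: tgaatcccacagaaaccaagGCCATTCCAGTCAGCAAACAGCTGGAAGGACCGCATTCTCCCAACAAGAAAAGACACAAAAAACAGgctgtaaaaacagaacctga
At 2 further exons the models allow first bases that lie 3 bases apart. Here the intron is in lower case and the exon in capitals. In each pair a single site was used, in all 12 libraries, and the other in 0.
Site at 103358720, used in 0 libraries: tttctccaaaagCAGTTTGAAGAT
Site at 103358723, used in 12 libraries: ctccaaaagcagTTTGAAGATGCT
Site at 103360699, used in 12 libraries: tttactttttagCAGAGTGATGAC
Site at 103360702, used in 0 libraries: actttttagcagAGTGATGACAAA

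CAPN3 lies on the minus strand of chromosome 1, from 128960117 to 129013508, and its models too differ in small exons. An exon of 18 bases at chr1:128966748-128966765 is in 6 of 10 models, and the next one, of 114 bases at chr1:128964141-128964254, is in 4 of 10. Both were present in all 12 libraries, and 0 assembled transcripts skipped them, so the form with both exons was the form assembled in loin. They are shown as read along the transcript, in capitals between neighbouring exon bases.
Exon of 18 bases: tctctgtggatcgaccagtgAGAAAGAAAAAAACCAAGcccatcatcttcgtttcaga
Exon of 114 bases: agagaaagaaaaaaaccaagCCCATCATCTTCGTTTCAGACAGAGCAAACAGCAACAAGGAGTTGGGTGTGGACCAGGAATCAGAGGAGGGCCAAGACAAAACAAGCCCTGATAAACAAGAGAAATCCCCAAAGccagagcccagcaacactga
A longer form of this last exon, of 159 bases, was in 0 libraries. An exon of 147 bases at chr1:128977787-128977933, which 7 of 10 models hold, was in all 12.

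Levels were compared in FPKM (fragments per kilobase of transcript, scaled to the mapped fragments of the library), added over the transcripts of a gene and scaled between libraries. CAPN3 was the most abundant member, with a mean level of 149 ± 22.6 FPKM (SD, n = 12 pigs). CAPNS1 followed with a mean of 49.8 ± 10.4, CAPN2 with 35.0 ± 15.8, CAST with 30.4 ± 10.4 and CAPN1 with 18.1 ± 2.95 FPKM (SD, n = 12 each). CAPN3 was above CAPNS1 in 12 of 12 pigs, with a mean log2 ratio of 1.60 ± 0.40 (SD, n = 12; two-sided exact sign-change test, adjusted p = 0.00195 over 4 neighbours, p = 0.00049 being the smallest it can give). CAPNS1 was above CAPN2 in 10 of 12 pigs (exact test, adjusted p = 0.0182), and CAST was above CAPN1 in 11 of 12 (exact test, adjusted p = 0.00781). CAPN2 and CAST did not separate in summed FPKM: CAPN2 was the higher in 6 of 12 pigs, and the mean log2 ratio of 0.20 ± 0.71 (SD, n = 12) was smaller than its SD (exact test, adjusted p = 0.362). The step from CAPNS1 to CAPN2 was lost when annotated intron chains alone were counted (exact test, adjusted p = 0.507) and when read coverage was divided by a fixed exon length (exact test, adjusted p = 0.606). With that same coverage CAPN2 stood above CAST, by a mean log2 ratio of 0.55 (exact test, adjusted p = 0.0169). There the assembled bases are divided by all annotated exonic bases, 5662 for CAST, 3141 for CAPN2 and 1358 for CAPNS1. The main CAST transcript was assembled at 2.35 to 9.34 kb, so this order also depends on assembled against annotated length. Annotated chains alone also took the step from CAPN3 to CAPNS1 past the threshold of 0.1 (exact test, adjusted p = 0.127), as the CAPN3 chain of H2 is then at 0.

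**Figure D1:**
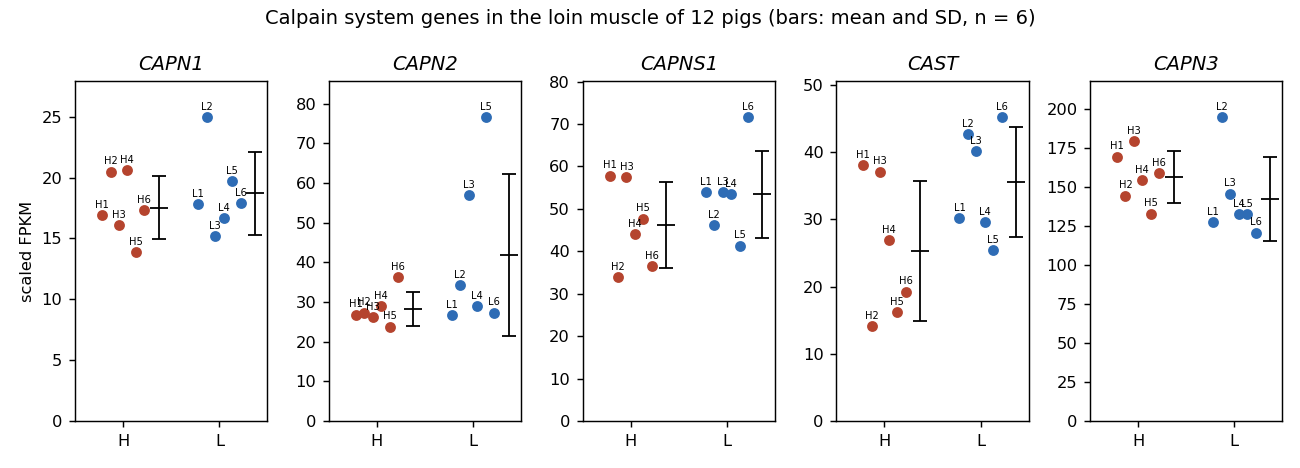
Scaled FPKM (vertical axes from 0, a scale of its own for each gene) of the 5 genes in each H pig (red) and L pig (blue), with the mean and SD of 6 pigs as black bars. The groups overlap for every gene: CAST has 3 H pigs below all L pigs, CAPN2 has L3 and L5 above the rest, and CAPN3 has L2 at the top.

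The H and L groups overlapped for all 5 members, while 0.556% of the 12409 genes tested had groups that did not overlap. None of the 5 passed the test between H and L pigs (limma, adjusted p from 0.687 to 0.904), against 0.00806% of genes over the whole table, or 1 gene, LOC102162288, named because it was the only call. None of the 5 had an unadjusted p under 0.05 either, by limma or by the exact permutation test, compared with 7.28% of all genes by limma. On the log2 scale the difference, H minus L, was smallest in size for CAPN1, at -0.09, and largest for CAST, at -0.55, where the median size over all genes tested was 0.18 and the median standard error was 0.22. An absence of difference was not shown by these tests, and the intervals below give the sizes that they leave possible.

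CAPN1, the µ-calpain protease, was the steadiest conventional calpain. In the H pigs its lowest, median and highest levels were 13.9, 17.1 and 20.6 FPKM, and in the L pigs they were 15.2, 17.9 and 24.9 FPKM. The highest pig, L2, stood 1.80 times above the lowest, H5, and the groups overlapped throughout. The log2 fold change, H minus L, was -0.09 (SE 0.14, 95% interval -0.39 to 0.22; limma, adjusted p = 0.904; exact permutation test, p = 0.537). It was -0.0019 without L2 and -0.23 (SE 0.19) with annotated chains alone, neither of which passed the test. A chain of 21 introns, which equals 1 of the 4 RefSeq chains, was found in all 12 libraries. H2 added a shorter chain of 15 introns, at 11.4 FPKM, which was 55.8% of the CAPN1 level of that pig.

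CAPN2, the m-calpain protease, varied most among the proteases. Levels of the H pigs had a minimum of 23.8, a median of 27.1 and a maximum of 36.3 FPKM, whereas those of the L pigs had a minimum of 26.8, a median of 31.5 and a maximum of 76.5 FPKM. The width of the L group came from L3, at 57.0, and L5, at 76.5 FPKM, and the other L pigs lay between 26.8 and 34.2 FPKM, within the reach of the H pigs. The log2 fold change was -0.45 (SE 0.25, 95% interval -0.999 to 0.10; limma, adjusted p = 0.731; exact permutation test, p = 0.149). It fell to -0.25 without L5. With coverage over a fixed exon length it was -0.50 (SE 0.22; limma, unadjusted p = 0.0405, adjusted p = 0.484).

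The CAPN2 level of L5 consisted of 2 assembled pieces. The chain of 20 introns, which is the annotated one and occurred in all 12 libraries, held 37.0 FPKM there, and a piece of 1101 bases without introns at the 3′ end of the gene held 39.5 FPKM, or 51.6% of the sum. In the other 11 libraries no piece without introns was assembled. H2 and H4 each added a shorter spliced chain to the annotated one. In H2 it had 7 introns and 9.27 FPKM, 33.9% of the sum, beside 18.0 FPKM of the annotated chain. In H4 it had 13 introns and 7.45 FPKM, 25.7% of the sum, beside 21.5 FPKM. As each piece carries FPKM of its own, a transcript assembled in pieces counts more than once in the sum. In L3 the level of 57.0 FPKM came from the annotated chain alone.

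CAPNS1, the regulatory subunit that serves both conventional calpains, ranged from 33.9 over a median of 45.9 to 57.8 FPKM in the H pigs. In the L pigs it ranged from 41.3 over a median of 53.7 to 71.6 FPKM. H2 and H6 were below every L pig and L6 was above every other pig, with the rest intermixed. The log2 fold change was -0.21 (SE 0.17, 95% interval -0.59 to 0.16; limma, adjusted p = 0.796; exact permutation test, p = 0.236), and -0.13 without L6 or without H2. It was 0.03 (SE 0.36) with annotated chains alone, which turned the direction.

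The annotated CAPNS1 chain of 10 introns was present in all 12 libraries, but its level, from 14.2 to 54.0 FPKM, spread more widely than that of the gene. Shorter chains of 6 or 7 introns, which begin downstream of the annotated start, were assembled in H1, H3, H6, L2, L4 and L6. In L6 such a chain held 52.1 FPKM and the annotated chain 19.5 FPKM. In L2 the shorter chain held 31.9 and the annotated chain 14.2 FPKM. The 6 pigs without a shorter chain had CAPNS1 levels from 33.9 to 54.0 FPKM.

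**Figure D2:**
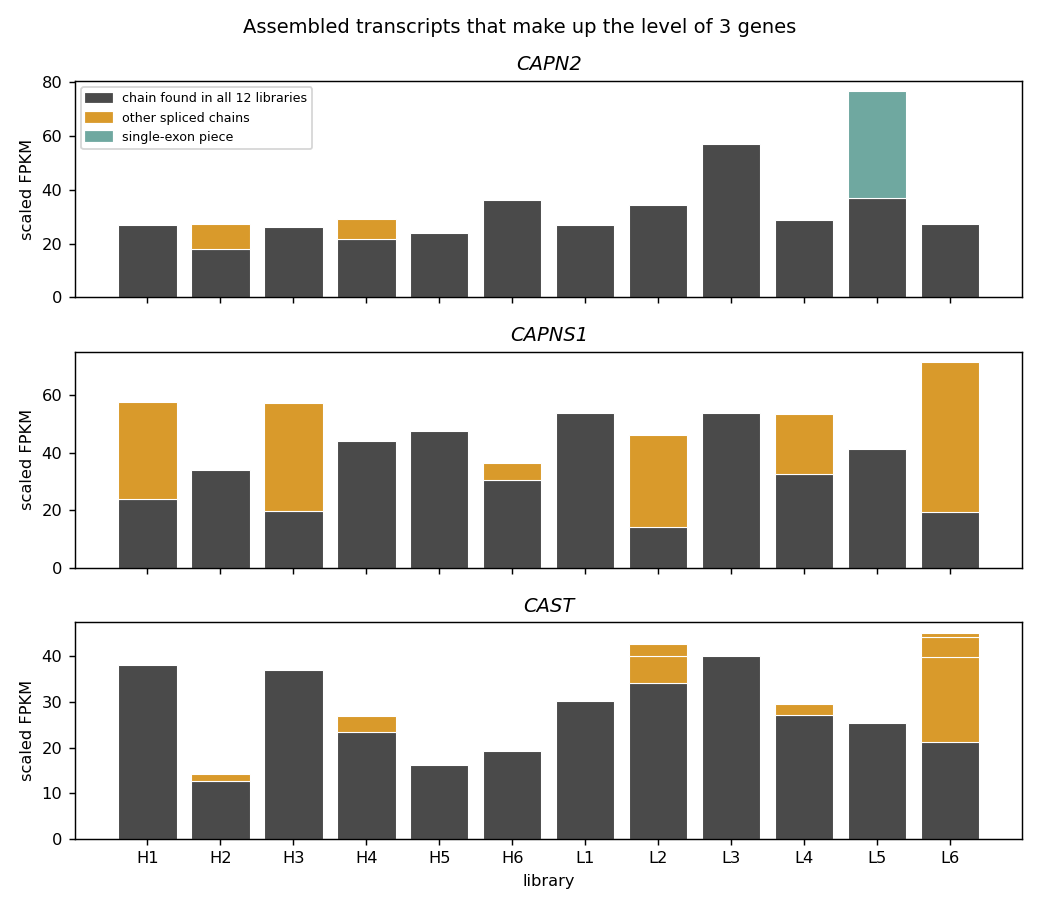
Scaled FPKM (vertical axes from 0) of CAPN2, CAPNS1 and CAST in each library, stacked by assembled transcript: the chain found in all 12 libraries in grey, other spliced chains in orange and a piece without introns in green. In L5 the piece of 39.5 FPKM lies on a CAPN2 chain of 37.0 FPKM, and in L6 shorter chains make up most of CAPNS1 and 18.8 FPKM of CAST comes from a single shorter chain.

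In summed FPKM calpastatin had the largest log2 difference of the 5 between the groups, without passing the test, whereas with annotated chains alone or with coverage CAPN2 had a larger one than CAST. CAST levels had a minimum of 14.2, a median of 23.1 and a maximum of 38.1 FPKM in the H pigs, and a minimum of 25.5, a median of 35.2 and a maximum of 45.2 FPKM in the L pigs. H2, H5 and H6, between 14.2 and 19.3 FPKM, were below every L pig, while H1 and H3, at 38.1 and 37.1, were among the L pigs. The mean was 25.3 ± 10.5 in H and 35.6 ± 8.14 in L (SD, n = 6 each), and the log2 fold change was -0.55 (SE 0.26, 95% interval -1.12 to 0.02; limma, unadjusted p = 0.0555, adjusted p = 0.687). The exact permutation test gave p = 0.0801, with 0.0022 the smallest p that this design allows. The direction, lower in H, was the same in all 26 alternatives, but the size was not: the log2 fold change was -0.29 (SE 0.27; limma, adjusted p = 0.837) with annotated chains alone and -0.15 (SE 0.23; limma, adjusted p = 0.843) with coverage over a fixed exon length. That coverage also depends on the length of the assembled transcript, as given below.

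The level of the dominant CAST chain moved with the length at which it had been assembled. The summed CAST level did not do so in every pig: L6, with a long copy, had the highest sum, at 45.2 FPKM. The dominant chain has 28 introns and equals the RefSeq model XM_021081005.1, and it was found in all 12 libraries with the same introns, so that its copies differed almost entirely in how far the last exon reached. In H1, H3, L2 and L3 the last exon stopped after 52 to 58 bases, the transcript was 2.35 to 2.38 kb long, and the chain held 34.2 to 40.2 FPKM. In L1 and L4 the transcript stopped just before the annotated end, at a length of 4.52 and 4.53 kb, and held 30.2 and 27.1 FPKM. In H2, H4, H5, H6, L5 and L6 it ran 1446 to 4776 bases past the annotated end, to lengths of 6.01 to 9.34 kb, and held 12.7 to 25.5 FPKM. The longest copies, in H2 and H6, were both in H pigs. FPKM divides fragments by this length, and its part in the group difference was not tested. Coverage over a fixed exon length counts every assembled base, also past the annotated end. For CAST it stood at 143 to 167 in H1, H3, L2 and L3, and at 167 to 350 in H2, H4, H5, H6, L5 and L6.

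These length classes were seen in the data and were not planned. Among the 4 shortest, CAST stood at 38.1 and 37.1 FPKM in the H pigs and at 42.7 and 40.2 in the L pigs. Among the 6 longest, the 4 H pigs had 14.2, 26.9, 16.2 and 19.3 FPKM and the L pigs 25.5 and 45.2. The class near the annotated end held 2 L pigs and 0 H pigs. With so few pigs in a class no test was made.

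**Figure D3:**
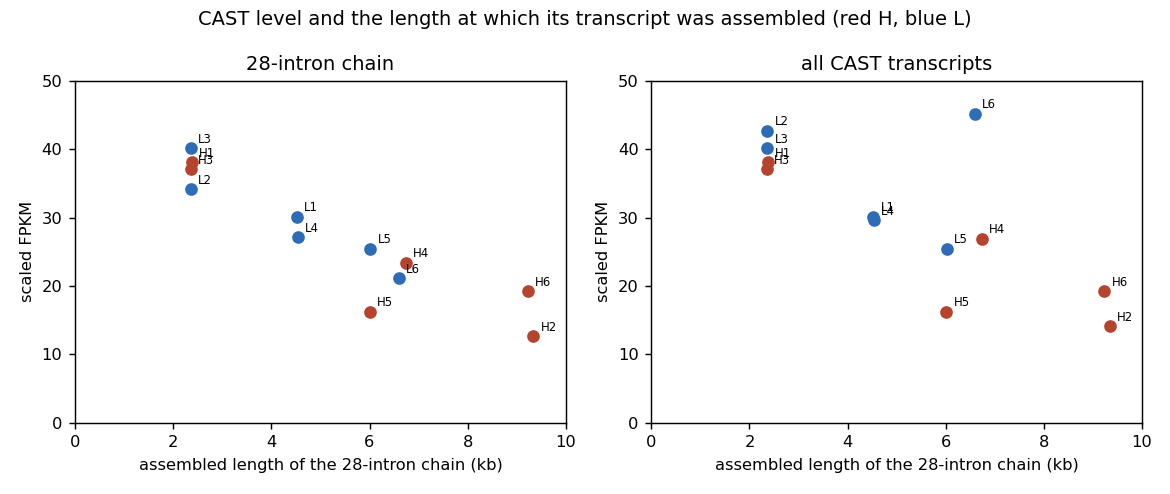
CAST level in scaled FPKM (vertical axes from 0) against the assembled length of its 28-intron chain in kb, for that chain (left) and for all CAST transcripts (right), with H pigs in red and L pigs in blue. The chain lies between 34.2 and 40.2 FPKM at 2.4 kb and between 12.7 and 19.3 FPKM at 9.2 to 9.3 kb, and L6 leaves this order when all its transcripts are added.

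The neighbour of CAST at this end is ERAP1, an aminopeptidase gene on the opposite strand, whose annotated 3′ end shares 196 bases with that of CAST. The sources used here do not say that the libraries kept the strand, and without it reads of the overlap cannot be given to either gene. In H2, H4, H5, H6 and L6, which had long CAST copies, the 3′ end of the assembled ERAP1 transcripts lay 11304 bases or more beyond the end of CAST. In L5, also with a long copy, ERAP1 transcripts overlapped it. In the 6 libraries with shorter copies the 3′ end of ERAP1 lay between 9 and 2283 bases beyond the CAST end. The part of this neighbour in the CAST level was not tested.

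**Figure D4:**
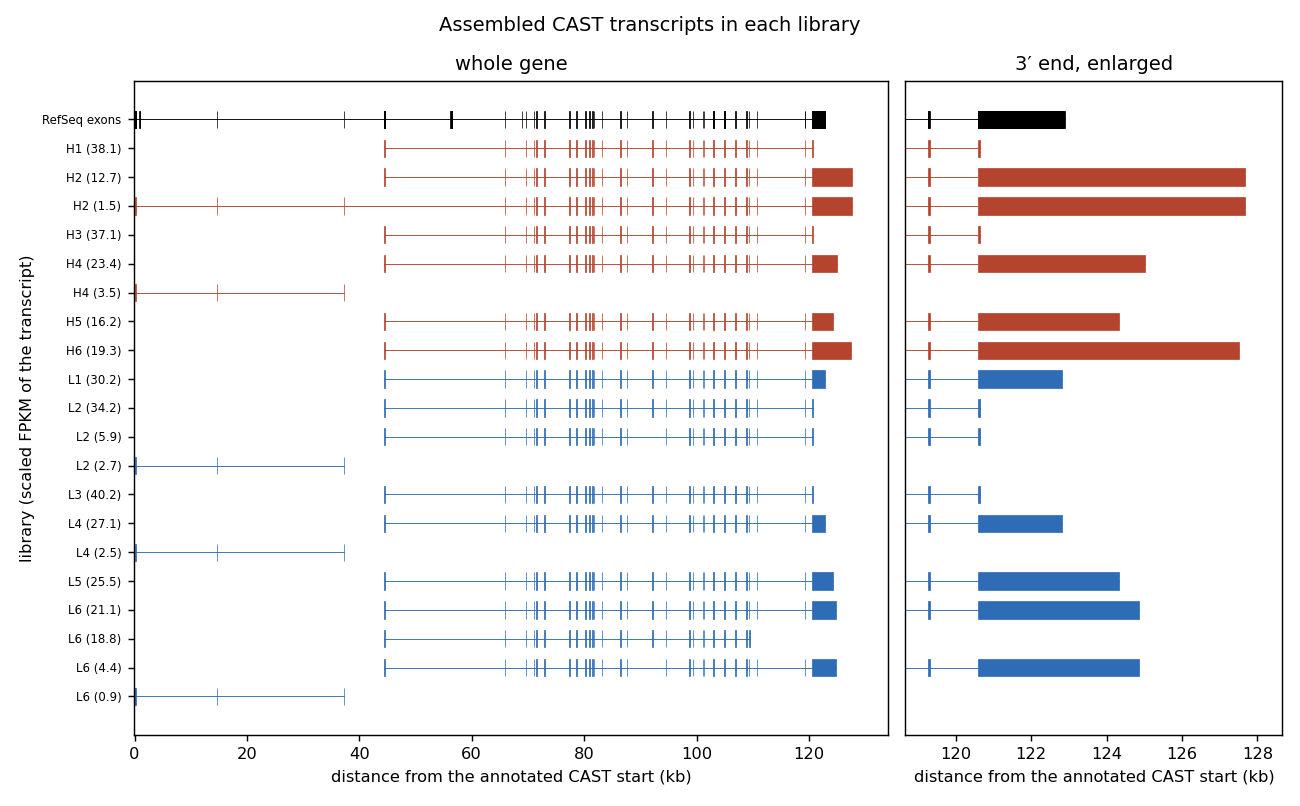
Assembled CAST transcripts of each library as distance in kb from the annotated start, with exons as boxes, introns as lines, the scaled FPKM of each transcript in brackets, and all RefSeq exons in black at the top. The 28-intron chain starts near 44.4 kb in every library, and its last exon, enlarged at right, ends early in H1, H3, L2 and L3 and runs past the annotated end in 6 libraries.

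Apart from its end, the CAST transcript of the loin was nearly uniform. First exon 3 carried 87.0 to 100% of the FPKM of spliced CAST transcripts. The upstream first exon 1 carried 10.3% in H2, 12.97% in H4, 6.27% in L2, 8.30% in L4 and 2.06% in L6, and was not assembled in the other 7 pigs. Its mean share was 3.88% ± 6.07 in H and 2.77% ± 3.64 in L (SD, n = 6 each), a difference of 1.11 percentage points that was smaller than either SD (two-sided exact permutation test, p = 0.773). In H2 this exon belonged to a complete chain of 30 introns, which equals XM_021080966.1 and held 1.46 FPKM. In H4, L2, L4 and L6 it headed a fragment of 2 introns at 0.93 to 3.49 FPKM. Cufflinks gave intervals of 27.5 to 41.1% of the value to either side of those fragments and 11.15% around the chain of H2, against 4.50 to 5.10% around the main CAST transcript of each library.

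Of 32 internal CAST exons in the models or the assemblies, counted by their exact ends, 28 were in every transcript that spanned them and 3 were in none. Those in none were the exon of 66 bases and the forms that begin at 103358720 and 103360702. The same exons with first bases at 103358723 and 103360699 were in all 12 libraries. The exon of 96 bases was the only one in between. It was skipped by a chain of 27 introns at 5.85 FPKM in L2 and 4.36 FPKM in L6, so that its inclusion was 85.4% in L2, 90.1% in L6 and 100% in the other 10 pigs. With a mean inclusion of 98.0% it lay above the upper limit of 95% set for a test, and 0 exons were tested between the groups. L6 also held a chain of 25 introns that ends before the last exons, at 18.8 FPKM. The CAST level of L6, 45.2 FPKM, was the sum of this chain, the 28-intron chain at 21.1 FPKM and smaller ones.

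CAPN3, the muscle calpain, had the only point estimate of the 5 that was higher in the H pigs. Its lowest, median and highest levels were 133, 157 and 179 FPKM in the H pigs and 121, 132 and 194 FPKM in the L pigs. All 6 H pigs were above the median of the L pigs, but L2 was the highest of all and H5 was close to the lower L pigs. The log2 fold change was 0.15 (SE 0.14, 95% interval -0.15 to 0.45; limma, adjusted p = 0.817; exact permutation test, p = 0.232), and 0.24 without L2. It turned to -0.08 (SE 0.19) with coverage over a fixed exon length. With annotated chains alone it was -1.17 (SE 1.29), since H2 then has no CAPN3 transcript: its chain of 22 introns, at 144 FPKM, ended inside the last intron, of 396 bases, which it therefore lacked. In the other 11 libraries the chain of 23 introns equalled NM_214171.2. With coverage H2 was the lowest too, at 1319 against 1950 to 3290 in the other 11. Its transcript was assembled at 3193 bases and theirs at 4738 to 6235, and the part of H2 in that turn was not tested.

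Each member has 1 chain in at least 6 libraries. Of these 5 chains 0 passed the test between H and L pigs (limma over 12567 chains, adjusted p from 0.877 to 1.00, unadjusted p from 0.0671), where 0.0557% of all chains did and 5.34% had an unadjusted p under 0.05. The log2 fold change was -0.44 (SE 0.22) for the CAPN2 chain, -0.36 (SE 0.28) for the 28-intron CAST chain, -0.28 (SE 0.20) for the CAPN1 chain and -0.02 (SE 0.36) for the CAPNS1 chain. For the CAPN3 chain it was -1.21 (SE 1.28), and 0.17 without H2.

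**Figure D5:**
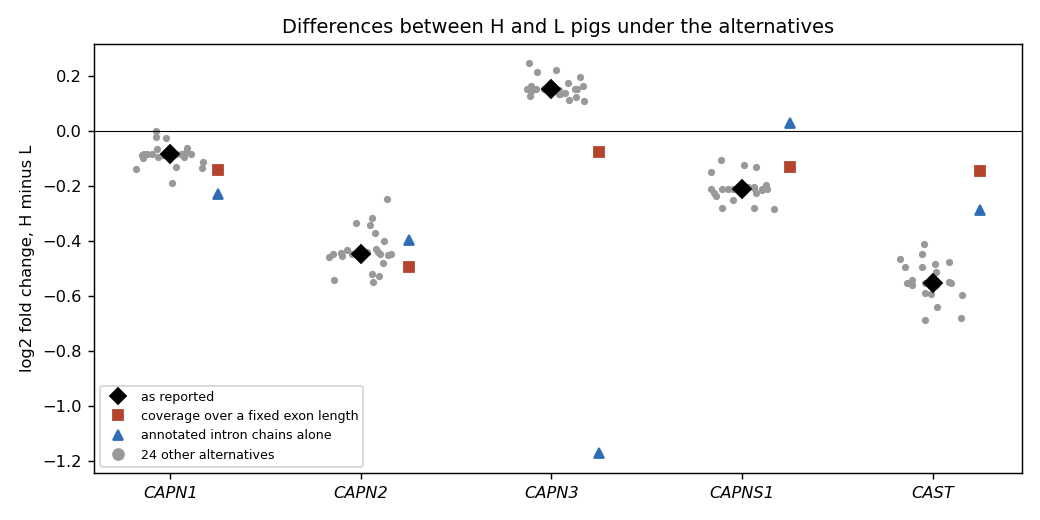
Log2 fold change, H minus L, of each gene (vertical axis) as reported (black diamonds) and under the alternatives, with coverage over a fixed exon length as red squares, annotated intron chains alone as blue triangles and the others in grey. CAST stays below 0 throughout but shrinks from -0.55 to -0.29 and -0.15 in these settings, and CAPN3 and CAPNS1 cross 0.

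The ratio of inhibitor to proteases was taken within each pig as a description. CAST over the sum of CAPN1 and CAPN2, in FPKM, was 0.56 ± 0.25 in H and 0.64 ± 0.24 in L (SD, n = 6 each), and ran from 0.26 in L5 to 1.00 in L6. These extremes are the pig with the CAPN2 piece without introns and the pig with the added CAST chain of 25 introns. CAPNS1 over the same sum was 1.04 ± 0.31 in H and 0.99 ± 0.41 in L (SD, n = 6 each). For both ratios the difference between the means was smaller than either SD.

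Among the 10 pairs of members, 1 varied together over the 12 pigs on the log2(FPKM + 0.5) scale: CAPNS1, the small subunit, and CAST. Pearson's r was 0.78 (permutation p = 0.0026, adjusted p = 0.026 over 10 pairs) and Spearman's rho was 0.75 (permutation p = 0.0071, adjusted p = 0.071). Without H2 and L6, the 2 pigs farthest from the median of CAPNS1, r was 0.60, with a p no longer under 0.05 (permutation p = 0.0652). Leaving out the extremes also narrows the range and the number of pigs. The drop therefore cannot show how far the relation rests on those pigs. Pearson's r was 0.83 within the H group (exact permutation p = 0.0556, n = 6) and 0.58 within the L group (exact permutation p = 0.246, n = 6). With annotated chains alone it was -0.20 (permutation p = 0.533), and the libraries with shorter CAPNS1 chains or short CAST copies were partly the same ones: H1, H3 and L2 had both. The part of the assembly in this correlation was not tested. The other 9 pairs had r from -0.36 to 0.36 over the 12 pigs (permutation, adjusted p of 0.833 or more). Among them CAPN3 with CAST had r = 0.86 within the H group (exact permutation, unadjusted p = 0.0292, n = 6). Within the L group it was 0.37 (exact permutation, unadjusted p = 0.565, n = 6).

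The genes whose levels followed each member most closely over the 12 libraries were taken from 5188 genes of at least 5 FPKM on average and above 0 in all libraries. They are a description, since the closest of so many genes are close by selection. For CAST they were FOS, an immediate early transcription factor (r = 0.91), PPP1R2, an inhibitor of protein phosphatase 1 (r = 0.90), and FLOT1, a membrane raft protein (r = 0.88). Each was itself lower in H by point estimate, with log2 fold changes of -2.30, -0.28 and -0.46 (limma, unadjusted p = 0.0020, 0.152 and 0.0130). As r spans both groups, it includes any shift between them. For CAPN1 the closest were FDFT1, which makes squalene (r = 0.89), ZCCHC24 (r = 0.89) and TFDP1, a partner of E2F factors (r = 0.88). CAPN2 was followed by GTF3C2 (r = 0.94), IARS, an isoleucyl-tRNA synthetase (r = 0.94), and IFNGR2, a subunit of the interferon gamma receptor (r = 0.90). For CAPN3 the closest were the kinase PAK1 (r = 0.91), UBE2E3 (r = 0.87) and MAF1, a repressor of RNA polymerase III (r = 0.86), and for CAPNS1 the ubiquitin ligase UBR1 (r = 0.87), RBM27 (r = 0.84) and the prion protein gene PRNP (r = 0.82).

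Of 12 other calpain genes, 5 were measurable and low. CAPN5, CAPN6, CAPN10 and CAPN15 had group means from 1.96 to 4.57 FPKM and log2 fold changes from -0.18 to 0.19. CAPN7, an atypical calpain, stood at 4.54 ± 2.86 FPKM in H and 12.2 ± 9.01 FPKM in L (SD, n = 6 each), with a log2 fold change of -1.42 (SE 0.67; limma, unadjusted p = 0.0556, adjusted p = 0.687). It was listed at 0 in H5, and without that pig the log2 difference was -0.83. CAPN8 was assembled in 1 library, and CAPN9, CAPN11, CAPN12, CAPN13, CAPN14 and CAPNS2 were listed at 0 in all. Of the 5 tested, 0 passed the test, and their median log2 fold change was -0.01, where that of all genes was 0.0029.

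Other proteases of muscle were counted beside the same background, in which 0.00806% of genes passed the test and 7.28% had an unadjusted p under 0.05. Of 15 cathepsins and cystatins, lysosomal proteases and their inhibitors, 14 were tested, 7 were higher and 7 lower in H by point estimate, and 0 passed the test (median log2 fold change -0.03). With an unadjusted p under 0.05 there were 2 of these 14, CTSC and CTSK. The smallest unadjusted p were those of CTSC (log2 fold change 0.53, SE 0.16; limma, adjusted p = 0.573), CTSK (-2.48, SE 0.76; limma, adjusted p = 0.573) and CST6 (-0.49, SE 0.26; limma, adjusted p = 0.718). CTSK, the cathepsin of bone resorption, was at 0 in 6 libraries. Of 10 caspases 7 were tested, 0 passed and 0 had an unadjusted p under 0.05 (median log2 fold change 0.02).

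Proteins that calpains are known to cut were represented by 17 genes of the myofibril and the membrane skeleton, all tested, of which 0 passed and 2 had an unadjusted p under 0.05. Their median log2 fold change was 0.17, but TTN was listed at 0 in 10 libraries and NEB, FLNC and TNNI1 in 1 each, and over the 13 genes without a 0 it was -0.01, where all genes without a 0 had -0.0031. SPTAN1, the alpha spectrin that is a classical calpain substrate, had 0.91 (SE 0.34; limma, unadjusted p = 0.0181, adjusted p = 0.634). For SPTAN1 H4 stood at 29.9 FPKM, the other H pigs at 7.41 to 14.7 and the L pigs at 4.44 to 13.4. DES, the intermediate filament desmin, had -0.46 (SE 0.21; limma, adjusted p = 0.683), and SPTBN1, the beta spectrin, had 0.50 (SE 0.24; limma, adjusted p = 0.687). Of 12 genes for titin and CAPN3 partners 11 were tested, 0 passed and 1, TRIM55, had an unadjusted p under 0.05 (median log2 fold change -0.22). TRIM55 had -0.87 (SE 0.36; limma, adjusted p = 0.659), with L3 at 45.0 FPKM and the other 11 pigs between 5.25 and 13.3, and -0.50 without L3. DYSF, the membrane repair protein dysferlin, had -0.22 (SE 0.15; limma, adjusted p = 0.760). TTN, the titin that anchors CAPN3, was listed at 0 in 10 of 12 libraries and ANKRD2 in all 12, so their values say little of these muscles.

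Cell type markers were set beside the members, because in bulk muscle fewer cells of a type and less RNA per cell cannot be told apart. The summed level of 8 adipocyte markers was 106 to 208 FPKM in H and 78.3 to 129 FPKM in L. All 8 were higher in H by point estimate, 1 with an unadjusted p under 0.05 (CIDEC) and 0 past the threshold. None was at 0 in all libraries, but LEP was at 0 in 5, and CIDEC and CIDEA in 1 each. The 8 slow fibre markers summed to 7569 to 11573 FPKM in H and 5381 to 12267 in L, with MYH7 at 0 in 2 libraries and TNNI1 in 1. The 10 fast fibre markers summed to 24431 to 49989 FPKM in H and 26264 to 45315 in L, with MYH1, MYH2 and MYH4 listed at 0. Smooth muscle and pericyte markers, which come from vessels, summed to 97.3 to 220 FPKM in H and 74.0 to 152 in L. Of these, 7 of 7 were higher in H by point estimate and 2 had an unadjusted p under 0.05. The 7 endothelial markers summed to 57.8 to 130 FPKM in H and 41.1 to 105 in L, again with 7 of 7 higher in H by point estimate and 2 with an unadjusted p under 0.05, none of them at 0 in all libraries. The erythroid markers summed to 85.4 to 299 FPKM in H and 73.0 to 161 in L, with HBA and SLC4A1 listed at 0. Of those tested, 3 of 3 were higher in H by point estimate, 2 of them with an unadjusted p under 0.05. AHSP, 1 of these 2, was at 0 in 6 libraries, and ALAS2 was at 0 in 1. No marker of these lists passed the threshold. Over all genes 0.00806% passed it, 7.28% had an unadjusted p under 0.05, and the median log2 fold change was 0.0029. The part of these cell types in the CAST and CAPN2 levels was not tested.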

How the data were processed

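The authors trimmed paired-end reads with Trim Galore, checked them with FastQC, mapped them with TopHat 2.1.0, using Ensembl transcripts as a guide, to the Sscrofa11.1 genome, and assembled and quantified each library by itself with Cufflinks 2.2.1, per the labels and the study's methods. The deposited files give FPKM, other attributes such as coverage, and exons per transcript, but neither gene names nor a scaling across libraries.

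Transcripts were assigned to RefSeq genes of Sscrofa11.1 by strand and most shared exonic bases, and their FPKM were added up per gene. A transcript listed without a strand could go to a gene of either strand that covered at least 50% of its bases. Of 170957 distinct introns, 98.5% had standard splice bases on this sequence. Median ratios over the 10470 genes present in every library set the scaling. A transcript that was not assembled was listed at 0. Levels as log2(FPKM + 0.5) of 12409 genes with a group mean of at least 0.5 FPKM, and of 12567 intron chains found in at least 6 libraries, were tested by two-sided limma (3.58.1, R 4.3.3) that included a trend of the variance, and p-values were adjusted by Benjamini-Hochberg over the whole table (threshold 0.1). A fold change on this scale understates changes of low genes. Cuffdiff, the authors' test, needs alignments, which were not used here. Correlations used 100000 permutations. Each pig is 1 library, so p-values measure the spread between pigs. The fit was tested on simulated data. Python 3.11.15 and numpy 2.4.6 were used.

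The members and gene lists were chosen with earlier results of these data known. Named are the 5 members, the 3 genes of smallest p in each pathway list (caspases given as counts alone, as 1 result is not reported here) and all measured calpains, the 3 genes most like each member, CAST chains found in at least 6 libraries or annotated, and markers whose list is set beside a member. The CAST chains in fewer libraries, CIDEC, ERAP1, LOC102162288, ANKRD2, TTN, NEB, FLNC, TNNI1 and the markers listed at 0 were named after their values were seen. Alternatives were other pseudocounts and minimums, other scalings, annotated chains alone, no short transcripts, coverage over a fixed annotated exon length, other limma settings, a covariate for depth, a block for the individual number, and pigs left out. After seeing the data, CAPN7 without H5, TRIM55 without L3, and list medians without genes at 0 were added. The sources used here name neither the slaughter batch nor the lane of a pig. Pigs of the same individual number did not deviate together.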

Additional observations from a re-analysis of the deposited data

Results flagged for a closer look

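Of 22 groups of 6 pigs looked at (5 gene levels, 5 intron chains and the upstream CAST first exon, each in H and L), 4 had a pig farther from the rest than Dixon's 95% critical value allows for the gap over the range, and chance alone flags about 1 group in 20. CAPN3 in L2 stood at 194 FPKM, 0.661 of the range of the L group away from its neighbour, and the same transcript flagged the 23-intron CAPN3 chain in L2, also at 194 FPKM. The 20-intron CAPN2 chain stood at 57.0 FPKM in L3, with a gap of 0.660 of the range. The 23-intron CAPN3 chain of H2 was at 0 because the assembled transcript there lacked the last intron.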

How the results depend on the processing

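None of the 5 members passed the threshold under any of the 26 alternatives, and CAPN1, CAPN2 and CAST were lower in H in all of them. The log2 fold change turned for CAPN3 with annotated chains alone (-1.17) and with coverage over a fixed exon length (-0.077), H2 being lowest in both. For CAPNS1 it turned with annotated chains alone (0.028). As a share of the gene it turned for the 28-intron CAST chain (0.19), the CAPN2 chain (0.0053) and the CAPNS1 chain (0.20), the last also without H4 and L3 (0.039). With each pig left out in turn it ran from -1.53 to 0.17 for the CAPN3 chain and from -0.25 to 0.13 for the CAPNS1 chain, and the difference in the upstream first-exon share from -0.71 to 2.22 percentage points. The genes called over the whole table numbered 1 as reported, 6 with coverage, 2 without a variance trend or with array weights, 0 with a minimum of 1 FPKM (804 with an unadjusted p under 0.05), 0 with the individual number as a replicate block (884) and 1 to 3 with a pig left out. The chains called numbered 7, and 4 with a pseudocount of 0.1, 2 when found in at least 3 libraries, 0 with the replicate block (649 with an unadjusted p under 0.05) and 6 to 11 with a pig left out. The same numbers pair no pigs (correlations of deviations from -0.08 to 0.06, and in 1 of 6 numbers the H pig was closest to the L pig of its own number), and the block changed no call of a member. No paired analysis was possible for exon inclusion because 0 exons could be tested. With annotated chains alone the pairs of neighbouring levels that differ fell from 3 to 1, the correlated pairs rose from 1 to 2 (CAPN1 with CAPN3, r = 0.79, and CAPN3 with CAST, r = 0.56). In that setting CAPN3 is at 0 in H2, and without H2, a choice made after seeing the data, r was 0.44 and 0.53. Also there r turned to -0.20 for CAPNS1 with CAST, 0.48 for CAPN2 with CAPN3 and 0.092 for CAPN2 with CAPNS1. FPKM per transcript depends on where an assembly starts and ends, and so does coverage over a fixed exon length. Cufflinks' own intervals, from 2.75 to 9.08% of the value for the main transcript of a member, cover counting and assignment alone and not that choice.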
